A study of Mus musculus with 8 samples.

Results

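Oxidative phosphorylation is carried out by 5 protein complexes of the inner mitochondrial membrane, and their subunit genes were examined here in the hypothalamus of young mice that had received PLX3397, an inhibitor of the receptor CSF1R on which microglia depend. Genes were chosen by name from the deposited expression table: mitochondrial genes for subunits (mt-Nd, mt-Co, mt-Cytb and mt-Atp) and nuclear genes of the Nduf, Sdh, Uqcr, Cox and Atp5 families. Of 109 genes with such names, 100 had a mean of at least 0.5 FPKM (fragments per kilobase of transcript, scaled to library size) over the libraries and were kept, out of 16894 genes above that level and 55401 in the table. They comprise 13 mitochondrially encoded subunits, 80 nuclear protein-coding genes and 7 processed pseudogenes, which were kept because their names match. The name rule covers structural subunits and also tissue isoforms and, in Cox7a2l, a factor of supercomplex formation. It leaves out Cyc1, whose name does not match, and Ndufa4 is counted with complex IV, where its protein is now placed.

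The study sequenced RNA from 8 hypothalami taken at postnatal day 19, with 4 vehicle and 4 PLX3397 pups that had been gavaged between days 9 and 15. The labels name 2 females (F1 and F2) and 2 males (M1 and M2) per group. The sources used here do not give strain, dose or litter, and the sample labels read brain where the series text reads hypothalamus. Collection followed the last gavage by several days, and PLX3397 given to whole pups reaches all tissues, so the groups differ in exposure to the compound as well as in microglia.

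Most of the respiratory chain is encoded in the nucleus, translated in the cytosol and imported. The mitochondrial genome supplies 7 subunits of complex I (NADH dehydrogenase), cytochrome b of complex III, the 3 catalytic core subunits of complex IV (cytochrome c oxidase) and 2 membrane subunits of complex V (ATP synthase), while complex II (succinate dehydrogenase) is wholly nuclear. Mitochondrial genes are transcribed from both strands as long precursors that are cut into single messages, with transfer RNAs between many of them. Neurons rely heavily on this pathway for ATP.

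Neighbouring mitochondrial genes share bases, which bears on how a read can be counted. In the reference (GRCm38), the end of mt-Atp8 and the start of mt-Atp6 overlap by 43 bases (MT 7927 to 7969), and mt-Nd4l and mt-Nd4 by 7 bases (MT 10167 to 10173). Both stretches are shown with 20 bases on each side and the shared bases in capitals, because reads across them belong to both genes:
mt-Atp8 and mt-Atp6, chrM:7907-7989, plus strand: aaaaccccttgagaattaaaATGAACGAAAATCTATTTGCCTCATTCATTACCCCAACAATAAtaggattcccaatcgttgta
mt-Nd4l and mt-Nd4, chrM:10147-10193, plus strand: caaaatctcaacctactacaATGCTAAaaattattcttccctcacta

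A further set of sequences belongs to the genes of the 1 subunit that passed the test. The c subunit of ATP synthase, which forms the rotating ring of the membrane part, is encoded by Atp5g1, Atp5g2 and Atp5g3, whose mature proteins are the same while their import signals and control regions differ. The 250 bases before each RefSeq start (GRCm38.p6) are printed 5′ to 3′ on the gene's strand, with matches in either strand to the motif of NRF1 (searched as GCATGCGC), a transcription factor known for respiratory chain genes, in capitals:
Atp5g1, chr11:96075632-96075881, minus strand: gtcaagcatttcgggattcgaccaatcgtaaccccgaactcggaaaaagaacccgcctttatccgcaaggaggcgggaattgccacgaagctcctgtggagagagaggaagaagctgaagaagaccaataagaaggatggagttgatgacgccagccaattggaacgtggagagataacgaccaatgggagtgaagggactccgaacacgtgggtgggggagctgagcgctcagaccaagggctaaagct
Atp5g2, chr15:102671048-102671297, minus strand: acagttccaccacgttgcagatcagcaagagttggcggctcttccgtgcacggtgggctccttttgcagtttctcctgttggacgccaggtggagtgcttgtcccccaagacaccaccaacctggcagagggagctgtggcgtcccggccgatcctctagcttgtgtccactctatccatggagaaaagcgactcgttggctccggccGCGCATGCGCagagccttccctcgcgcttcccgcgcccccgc
Atp5g3, chr2:73911327-73911576, minus strand: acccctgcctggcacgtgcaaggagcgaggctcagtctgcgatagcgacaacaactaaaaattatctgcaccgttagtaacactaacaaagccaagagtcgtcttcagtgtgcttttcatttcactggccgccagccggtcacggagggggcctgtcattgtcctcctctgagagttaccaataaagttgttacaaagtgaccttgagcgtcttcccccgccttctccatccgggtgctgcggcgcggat
In these windows Atp5g2 held 2 overlapping matches, 1 on each strand, and the other 2 genes held none. The Atp5g2 window lies inside the interval the deposited table gives for that gene, because the table's interval starts further upstream. Bases before that further start were not searched. Whether the matches have any part in the call was not tested.

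Messages of the mitochondrial genome took a slightly larger mean share of the counts in the PLX3397 libraries, with 1 library as the exception, while the share of nuclear subunits was nearly the same in both groups. The 13 mitochondrially encoded subunits took 4.03, 4.33, 4.06 and 4.26% of all counts in vehicle F1, F2, M1 and M2, and 4.70, 4.54, 4.23 and 4.71% in the PLX3397 libraries in the same order. Their means were 4.17 ± 0.15% and 4.55 ± 0.22% (SD, n = 4 each). PLX3397 M1 lay below 2 vehicle libraries, so the groups overlap. The 80 nuclear subunits took 0.910, 0.906, 0.901 and 0.906% in vehicle and 0.898, 0.906, 0.908 and 0.890% in PLX3397, an almost constant share. Counts of mitochondrially encoded subunits were 4.60 ± 0.17 times those of nuclear subunits in vehicle and 5.05 ± 0.28 times in PLX3397 libraries. PLX3397 M1, at 4.66, again lay among the vehicle values. Reads assigned to near-identical nuclear copies, described below, are not counted with the mitochondrially encoded subunits here.

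**Figure D1:**
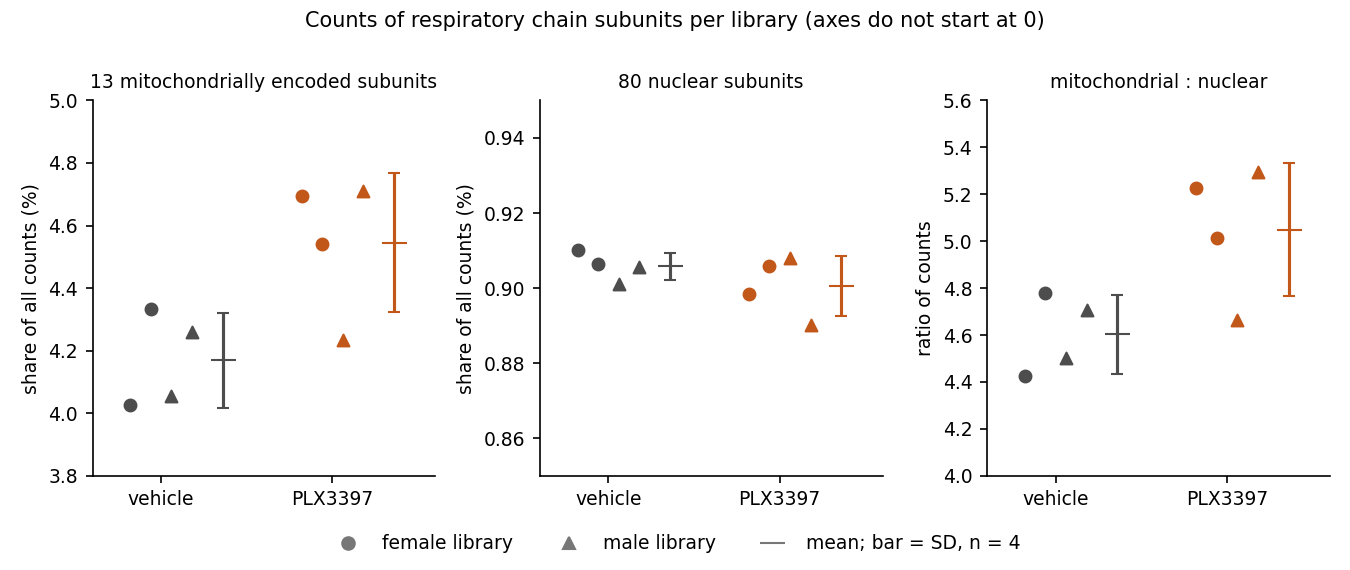
Shares of all counts (%) taken by the mitochondrially encoded and by the nuclear subunits, and the ratio of their counts, in each library of the 2 groups; circles are female and triangles male libraries, and the dash and bar give the mean and SD of 4 libraries. PLX3397 F1, F2 and M2 lie above all vehicle libraries in the first and last panel and PLX3397 M1 does not; the vertical axes do not start at 0.

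Several facts about the whole libraries stand beside these shares. Total counts ran from 54115300 to 67487391, and the 3 counts that a count of 0 still allows come to 0.0445 to 0.0554 CPM (counts per 1000000 in a library), for counting error only. The summed level of 17 microglial markers was 368 to 375 CPM in vehicle and 32.7 to 66.5 CPM in PLX3397, with 13 of 17 passing the test as lower, and C1qa, Fcrls, Gpr34, Siglech, Trem2 and Tyrobp at 0 in at least 1 library. The 15 oligodendrocyte markers summed to 6900 to 10441 CPM in vehicle and 2362 to 5364 CPM in PLX3397 (5 of 15 called lower). The 15 neuronal markers summed to 7170 to 7453 and 7584 to 8098 CPM (1 of 15 called higher, 8 of 15 without overlap above vehicle). Of them 4 went the other way, Slc32a1, Gad2, Gad1 and Tubb3 (log2 fold change -0.21, -0.17, -0.05 and -0.0049). Of all genes tested 1.83% were called lower, 0.308% were called higher and 4.85% lay above vehicle without overlap. No oligodendrocyte or neuronal marker was at 0 in any library. Pituitary markers reached 3156 CPM in vehicle F1 against 21.2 to 49.6 CPM in the other libraries, and 10 hypothalamic genes chosen after values had been seen, such as Avp, Oxt and Agrp, were detected in every library. In bulk tissue, fewer cells of a type and less RNA per cell cannot be told apart. The part of these differences in the shares above was not tested.

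Gene by gene, PLX3397 was compared with vehicle by edgeR's quasi-likelihood F-test on the counts with sex as a covariate and Benjamini-Hochberg adjustment over all 16894 genes. Of the 100 members 1 passed an adjusted p of 0.05, Atp5g2, and it fell, against 2.14% of all genes tested (0.308% higher and 1.83% lower). Group values did not overlap for 2 of 13 mitochondrially encoded, 8 of 80 nuclear and none of 7 pseudogene members, against 11.2% of all genes. Both mitochondrially encoded genes and 3 of the 8 nuclear ones lay above vehicle (4.85% of all genes did), and 5 nuclear ones below it (6.32% of all genes did). At an unadjusted p of 0.05, 5 mitochondrially encoded and 7 nuclear members passed, against 16.2% of all genes. The nuclear shares of called genes and of groups without overlap were near or below those of all genes.

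Per length, the mitochondrially encoded subunits had means of 771 to 7656 FPKM, and the nuclear ones of 1.15 to 272 FPKM. Among the mitochondrially encoded subunits all 13 log2 fold changes were above 0 (49.4% of all genes were), with a median of 0.12, a lowest value of 0.02 in mt-Nd3 and a highest of 0.30 in mt-Nd6. Over all genes tested the median was -0.0025, and over the nuclear subunits 0.0025. None of the 13 passed the adjusted test. The genes are not independent, since neighbours come from the same precursor transcripts and share bases and libraries, so 13 of 13 is a count and not a test. It held in each of 3 other scalings and with DESeq2 and limma-trend, was 12 of 13 without vehicle M1 and without PLX3397 M1, and became 9 of 13, with a median of 0.043, when vehicle F1 and PLX3397 M2 were both left out.

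Among the mitochondrially encoded genes, those for the 3 core subunits of cytochrome c oxidase came nearest to a call. For mt-Co3 (MT 8607 to 9390) the vehicle libraries F1, F2, M1 and M2 had 2652, 2740, 2785 and 2694 CPM and the PLX3397 libraries 2960, 2922, 2946 and 3036 CPM. Every PLX3397 value lay above every vehicle value, and the log2 fold change was 0.13 ± 0.03 (standard error; edgeR adjusted p = 0.051). For mt-Co2 (MT 7013 to 7696), which carries a copper centre that receives electrons from cytochrome c, the values were 3122, 3407, 3330 and 3298 CPM in vehicle and 3712, 3655, 3568 and 3756 CPM in PLX3397. Here too the groups were apart, at 0.16 ± 0.03 (edgeR adjusted p = 0.068). For mt-Co1 (MT 5328 to 6872), the subunit in which oxygen is reduced and the member with the highest level per length, values were 12495, 13442, 12407 and 13016 CPM against 14797, 14212, 13429 and 14615 CPM. PLX3397 M1 lay just below vehicle F2, and the log2 fold change was 0.15 ± 0.04 (edgeR adjusted p = 0.112). Calls for these genes depend on the analysis: of 22 alternatives 8 called mt-Co3, 4 called mt-Co2 and 1 called mt-Co1, and no fit with a library left out called any of them.

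Complex I subunits of the mitochondrial genome spread more widely, with a median of 0.094 over 7 genes. The lowest value belonged to mt-Nd3, at 307, 317, 284 and 312 CPM in vehicle and 293, 296, 328 and 321 CPM in PLX3397, a log2 fold change of 0.02 ± 0.05 (edgeR adjusted p = 0.895). Both groups covered the same range. The highest belonged to mt-Nd6, the single protein gene that lies on the other strand (MT 13552 to 14070), at 904, 1073, 922 and 1022 CPM in vehicle and 1283, 1260, 966 and 1309 CPM in PLX3397. PLX3397 F1, F2 and M2 lay above all vehicle libraries and M1 lay among them, giving 0.30 ± 0.10 (edgeR adjusted p = 0.216). The neighbouring mt-Nd5 (MT 11742 to 13565), one of the proton-pumping subunits, lies on the opposite strand and shares only its last bases with the end of mt-Nd6. It gave 0.19 ± 0.07 with the same edgeR adjusted p of 0.216. Since strand is not given for these counts, reads from mt-Nd6 and from RNA opposite to it cannot be told apart. Values for mt-Nd1, mt-Nd2, mt-Nd4 and mt-Nd4l ran from 0.06 to 0.11, each with an edgeR adjusted p of at least 0.404.

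Cytochrome b, the heme protein of complex III, stood at 5289 to 5744 CPM in vehicle and 5389 to 6357 CPM in PLX3397 (log2 fold change 0.12 ± 0.05, edgeR adjusted p = 0.321). Of the ATP synthase subunits, mt-Atp8 gave 0.19 ± 0.08 and mt-Atp6, which forms the proton channel with the c ring, 0.07 ± 0.07 (edgeR adjusted p = 0.316 and 0.662). Their groups overlapped, as did those of cytochrome b.

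**Figure D2:**
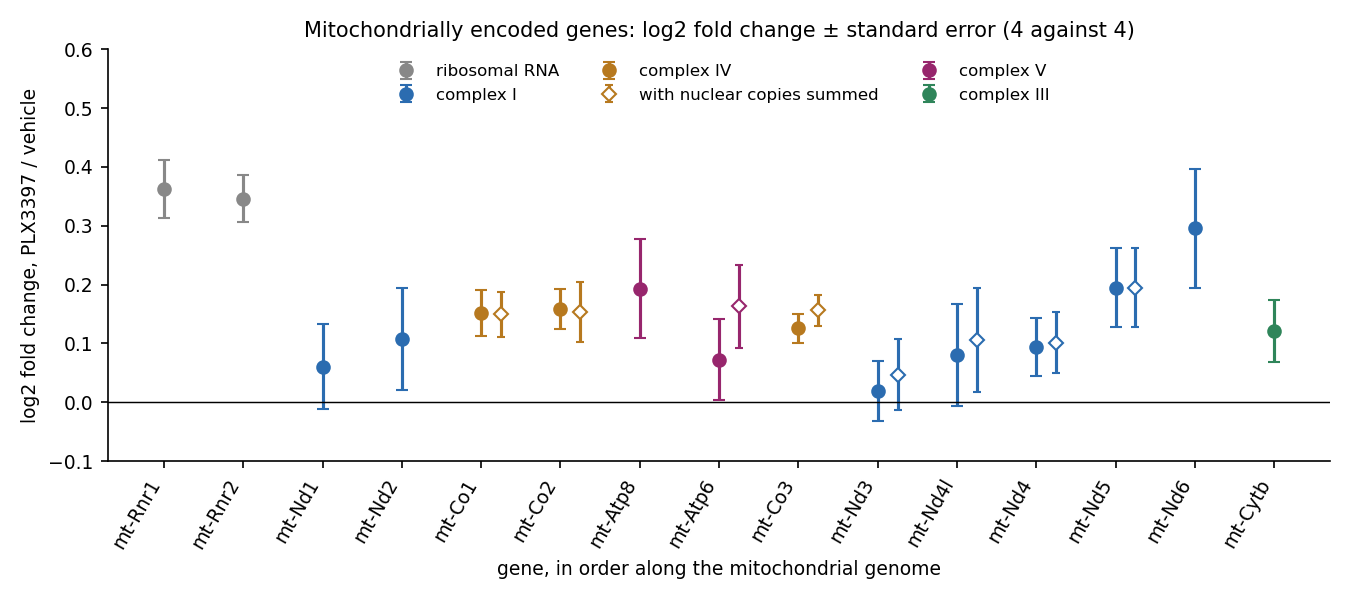
Log2 fold change of PLX3397 over vehicle (vertical axis) with its standard error for the 2 mitochondrial ribosomal RNAs and the 13 protein genes in their order along the mitochondrial genome, 4 against 4 libraries; colours give the complex and open diamonds the value after counts of near-identical nuclear copies were added. All points lie above 0, from 0.02 for mt-Nd3 to 0.36 for mt-Rnr1.

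The reads of several of these genes have a second possible home. Nuclear stretches of at least 95% identity over at least 50% of the transcript were found in the table for 8 of 13 genes, and for 6 of them they held more than 10% of the gene's own count. Gm28661, Gm28437, Gm28438 and Gm10222, all on chromosome 1, stood at 92.7, 94.1, 93.6 and 94.0% of mt-Co2, mt-Co3, mt-Nd3 and mt-Nd4l, and Gm10925 at 336% of mt-Atp6. The sources used here do not say how the authors' counting split reads between them, so the level of each such gene by itself is uncertain. The shares and ratios given above count the 13 genes alone and carry the same uncertainty. A list of 11 annotated nuclear copies, with Gm10221, a copy of Atp5l, summed to 12412 to 14199 CPM in vehicle. In PLX3397 it summed to 13459 to 15598 CPM. On that list Gm29216 alone stood at 2804 to 3153 CPM in vehicle and 3161 to 3561 CPM in PLX3397. It met the limits of identity and length for none of the 13 genes. Its counts were therefore not added to any gene, and the share of reads it takes from them was not tested. After the counts of gene and copies were added, mt-Co3 rose (0.16 ± 0.03, edgeR adjusted p = 0.032), mt-Co2 stood at 0.15 ± 0.05 (edgeR adjusted p = 0.2) and mt-Atp6 at 0.16 ± 0.07 (edgeR adjusted p = 0.316), and the median of the 13 was 0.15.

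Other RNAs of the mitochondrial genome stood higher as well. The 2 ribosomal RNAs passed the test and rose: mt-Rnr2 had 2950, 2944, 2446 and 2562 CPM in vehicle and 3563, 3516, 3292 and 3446 CPM in PLX3397 (log2 fold change 0.35 ± 0.04, edgeR adjusted p = 0.0076). For mt-Rnr1 the change was 0.36 ± 0.05 (edgeR adjusted p = 0.014), from 2075 to 2482 CPM in vehicle to 2913 to 3010 CPM in PLX3397. PLX3397 M1, which lay above all vehicle libraries for 3 of 13 protein genes (F1 for 11, F2 for 9 and M2 for 13), lay above them for both ribosomal RNAs. Of 22 alternatives 21 called mt-Rnr2 and 18 called mt-Rnr1. The mt-Rnr1 call was lost without vehicle M2 or PLX3397 M1 (edgeR adjusted p up to 0.056) and without both vehicle F1 and PLX3397 M2 (edgeR adjusted p = 0.069). Library preparation removed ribosomal RNA with probes, so their counts are what depletion left, and its part was not tested. All 24 ribosomal and transfer RNAs had values above 0, with a median of 0.30, and the other 22, which are short for such libraries, did not pass.

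Nuclear subunits stayed close to 0. Of the 80, 43 had a log2 fold change above 0 and 37 below. Within 0.1 of 0 on either side lay 61 (47.0% of all genes did). For 59 the interval of 2 standard errors lay within 0.25 of 0 (6024 of 16894 genes). Nuclear subunits had a higher median level than all genes tested (46.3 against 4.46 FPKM) and a smaller median standard error (0.053 against 0.106). The part of level in these counts was not tested. By complex the medians were -0.0034 for 35 genes of complex I, -0.0094 for 4 of complex II, -0.0006 for 8 of complex III, 0.018 for 16 of complex IV and 0.0011 for 17 of complex V. The mitochondrially encoded medians for complexes I, III, IV and V were 0.094, 0.12, 0.15 and 0.13. In each complex with both kinds of subunit, the mitochondrially encoded median was therefore the higher. No test was made of that difference, since members are not replicates.

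**Figure D3:**
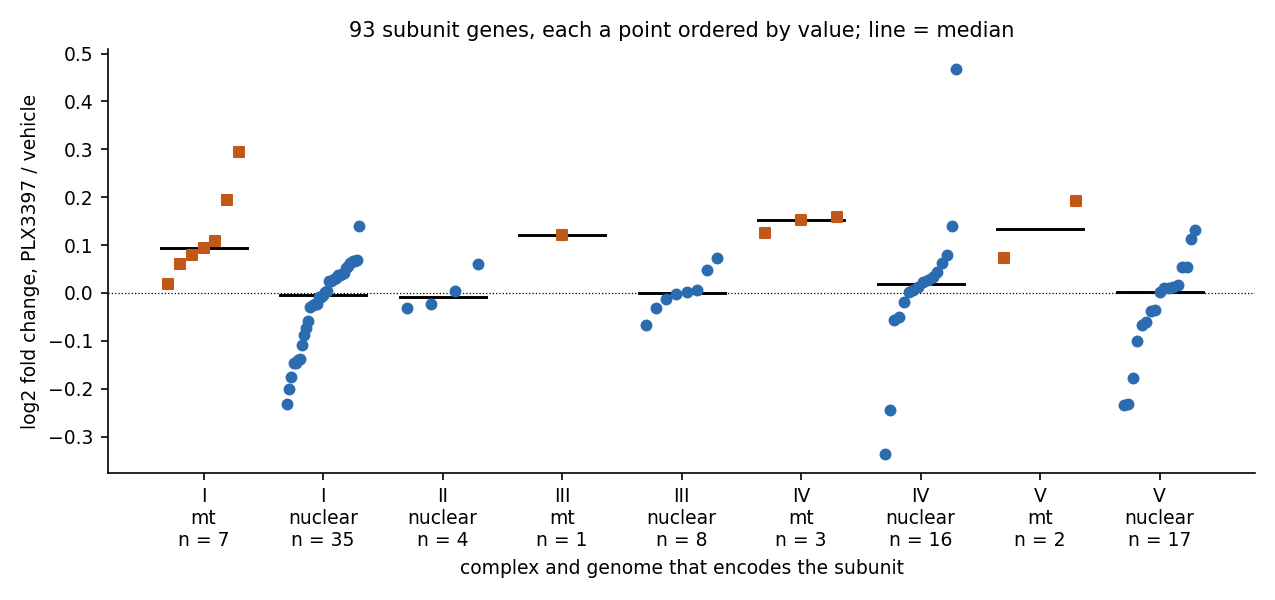
Log2 fold change of PLX3397 over vehicle (vertical axis) for the 93 subunit genes without pseudogenes, grouped by complex and encoding genome; each point is a gene, ordered by value within its group, squares are mitochondrially encoded and circles nuclear, and lines are medians. Nuclear medians lie between -0.0094 and 0.018 and mitochondrially encoded ones between 0.094 and 0.15.

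In complex I, the 7 nuclear core subunits, which pass electrons on from NADH, had a median of -0.0034 and the 28 accessory subunits one of -0.0014. Of the 28 accessory subunits 4 were below vehicle without overlap, where 6.32% of all genes were, and none of the 4 was called. Ndufb7, a small subunit on the intermembrane side, had 70.9, 75.7, 74.6 and 75.9 CPM in vehicle and 66.8, 62.5, 65.4 and 63.7 CPM in PLX3397. All PLX3397 values lay under the lowest vehicle value, and the log2 fold change was -0.20 ± 0.04 (edgeR adjusted p = 0.071). The others were Ndufa2 at -0.15 ± 0.05, Ndufa7 at -0.14 ± 0.05 and Ndufs4, whose loss causes a known mouse model of Leigh syndrome, at -0.15 ± 0.05 (edgeR adjusted p = 0.186, 0.228 and 0.217). Ndufs3 lay above vehicle without overlap at 0.07 ± 0.04 (edgeR adjusted p = 0.435).

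Complex II, which links the chain to the tricarboxylic acid cycle, had all 4 values within 0.1 of 0, as had the 8 nuclear subunits of complex III. Its flavoprotein Sdha had 500, 503, 519 and 490 CPM in vehicle and 530, 536, 525 and 508 CPM in PLX3397, a log2 fold change of 0.06 ± 0.03 (edgeR adjusted p = 0.385). The iron-sulfur subunit Sdhb and the membrane anchors Sdhc and Sdhd had values from -0.03 to 0.005 with standard errors of 0.03 to 0.04. In complex III the values ran from Uqcrh, the hinge protein at the cytochrome c side, at -0.07 ± 0.04 to Uqcrb at 0.07 ± 0.05 (edgeR adjusted p = 0.484 and 0.5). No member of either complex had groups without overlap.

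ATP synthase held the 1 called subunit. For Atp5g2 (chromosome 15, 102662864 to 102672352, minus strand) the vehicle libraries F1, F2, M1 and M2 had 81.9, 78.2, 88.1 and 82.4 CPM and the PLX3397 libraries 68.3, 71.3, 69.7 and 71.5 CPM. All 4 PLX3397 values lay below all 4 vehicle values, and the gene fell (log2 fold change -0.23 ± 0.04, edgeR adjusted p = 0.042). The other 2 genes of the same subunit did not pass: Atp5g1 had 155, 125, 133 and 124 CPM in vehicle and 163, 149, 141 and 136 CPM in PLX3397 (0.13 ± 0.07, edgeR adjusted p = 0.419). Atp5g3 had 170, 169, 159 and 167 CPM in vehicle and 160, 169, 166 and 154 CPM in PLX3397 (-0.04 ± 0.04, edgeR adjusted p = 0.705). Whether the 3 genes differ from each other in their response was not tested. The Atp5g2 call rests on all libraries: it was lost whichever of the 8 libraries was left out (adjusted p from 0.079 to 0.139), and 9 of 22 alternatives called it. It was also lost (adjusted p = 0.058) when the counts of 2 near-identical copies, Gm10231 and Gm10175, each at more than 10% of its level, were added.

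**Figure D4:**
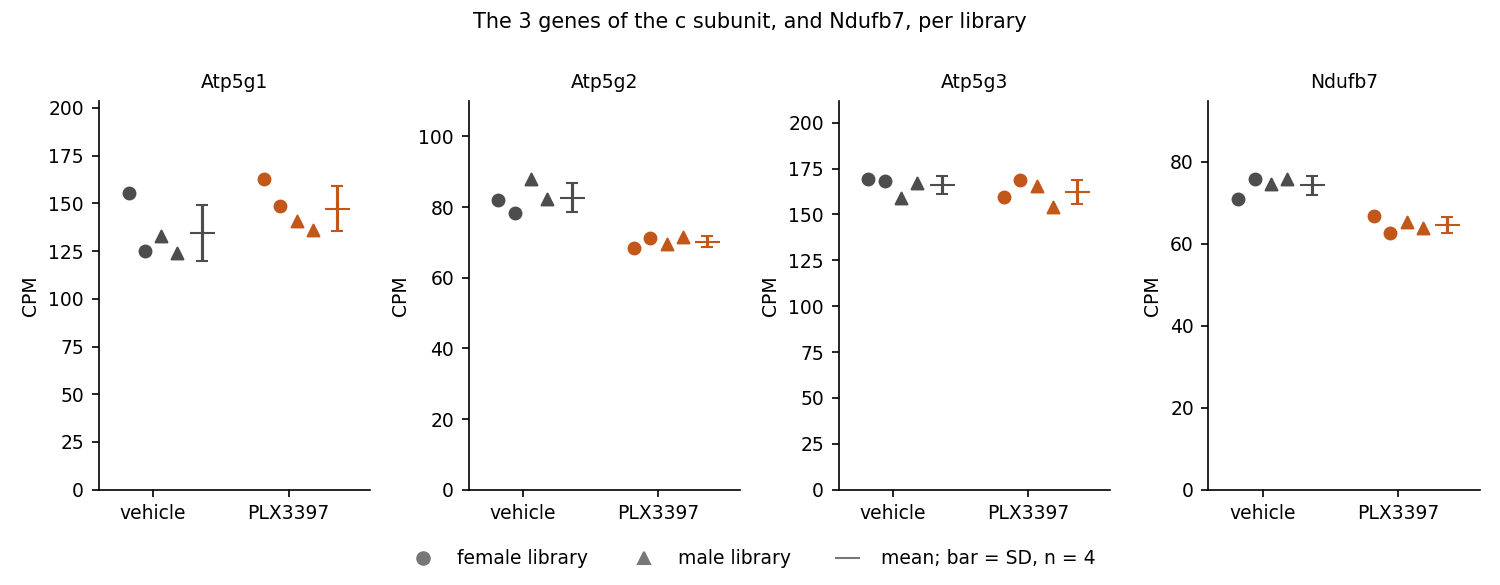
Levels in counts per 1000000 (CPM, vertical axis from 0) of the c subunit genes Atp5g1, Atp5g2 and Atp5g3 and of the complex I subunit Ndufb7 in each library; circles are female and triangles male libraries, and the dash and bar give the mean and SD of 4 libraries. For Atp5g2 and Ndufb7 every PLX3397 library lies below every vehicle library, while for Atp5g1 and Atp5g3 the groups overlap.

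In the catalytic head and central shaft of ATP synthase the median over Atp5a1, Atp5b, Atp5c1, Atp5d and Atp5e was 0.0011. Atp5a1, the alpha subunit, had 794, 814, 807 and 801 CPM in vehicle and 839, 835, 844 and 821 CPM in PLX3397. These are narrow groups that do not overlap, with a log2 difference of 0.05 ± 0.02 (edgeR adjusted p = 0.323). The beta subunit gene Atp5b had 845 ± 19.2 and 851 ± 10.3 CPM (SD, n = 4 each). The small epsilon subunit gene Atp5e stood at 45.1, 44.0, 40.6 and 44.9 CPM in vehicle and 39.2, 41.2, 34.5 and 34.2 CPM in PLX3397, lower in 3 of 4 PLX3397 libraries than in any vehicle library (-0.23 ± 0.06, edgeR adjusted p = 0.115).

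Cytochrome c oxidase has alternative nuclear subunits for different tissues, and their levels per length set the brain forms apart. On the FPKM scale the widely expressed forms Cox6a1, Cox6b1, Cox8a and Cox4i1 had means of 271, 237, 272 and 129 over the 8 libraries, and the forms known from muscle, testis or lung, Cox6a2, Cox6b2, Cox7a1 and Cox4i2, had 8.60, 2.68, 2.28 and 1.15. Cox8b, the muscle form of subunit VIII, lay below the threshold at 0.38 FPKM. Levels per length depend on the gene model. For 40 of 80 nuclear genes the length implied by counts and FPKM was over 2 times the coding transcript of middle length. The longest transcript of each gene was not compared. Among the isoforms Cox6b2 alone had groups apart: 2.77, 2.72, 2.95 and 3.15 CPM in vehicle and 3.56, 4.25, 4.79 and 3.42 CPM in PLX3397. Its log2 fold change of 0.47 ± 0.15 did not pass (edgeR adjusted p = 0.187), while Cox6b1, at about 192 CPM in both groups, gave 0.01 ± 0.03.

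Cox7a2l showed a split between libraries that the treatment groups do not describe. Its protein joins complexes III and IV into supercomplexes. Vehicle F1 and F2 had 148 and 135 CPM, vehicle M1 and M2 78.3 and 90.4 CPM, and PLX3397 F1, F2, M1 and M2 80.5, 85.4, 94.2 and 86.5 CPM. The 2 vehicle females thus stood above all other libraries, which lay within a narrow range. Within females the gene was the 1 nuclear member called (log2 fold change -0.77 ± 0.09, edgeR adjusted p = 0.034, where 0.361% of all genes were called), within males it gave 0.10 ± 0.09 (edgeR adjusted p = 0.702), and the difference between the sexes did not pass (edgeR adjusted p = 0.162, 0.077% of all genes called). With 2 libraries in each sex and group, these effects rest on 2 against 2.

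**Figure D5:**
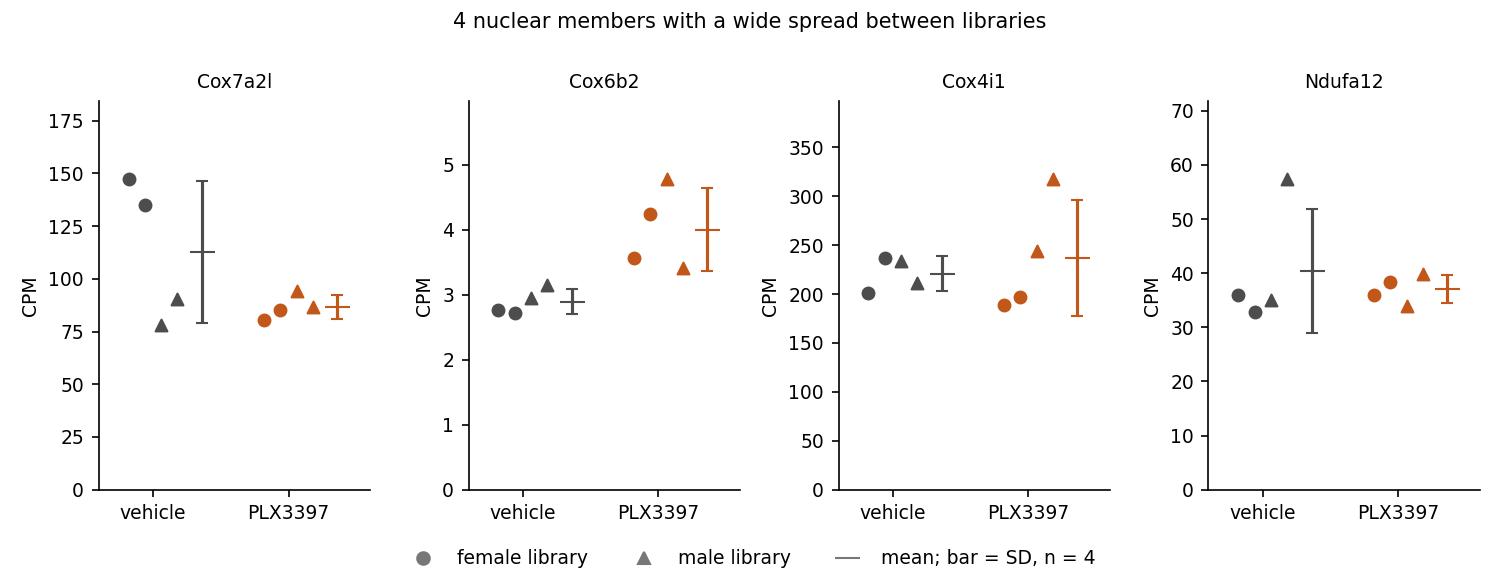
Levels in counts per 1000000 (CPM, vertical axis from 0) of Cox7a2l, Cox6b2, Cox4i1 and Ndufa12 in each library, chosen after values were seen; circles are female and triangles male libraries, and the dash and bar give the mean and SD of 4 libraries. Vehicle F1 and F2 stand above the others for Cox7a2l, at 148 and 135 CPM. A single library stands apart for Cox4i1 (PLX3397 M2 at 318 CPM) and for Ndufa12 (vehicle M2 at 57.5 CPM). For Cox6b2 every PLX3397 library lies above every vehicle library.

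The nuclear subunits otherwise varied little between animals. The highest library exceeded the lowest by a median factor of 1.17 over the 80 genes (1.20 over the mitochondrially encoded ones), and 9 genes exceeded 1.5, namely Ndufa11, Ndufa12, Cox4i1, Cox4i2, Cox6b2, Cox6c, Cox7a1, Cox7a2l and Atp5mpl. Atp5b, by contrast, varied by a factor of 1.06. Of those 9, Cox4i1, the main brain form of a regulatory subunit, ran from 189 to 244 CPM in 7 libraries and reached 318 CPM in PLX3397 M2. The same library had the lowest value of Ndufa11, at 25.1 CPM against 36.9 to 51.2 CPM elsewhere. Cox4i1 gave 0.08 ± 0.13 and Ndufa11 -0.23 ± 0.19 between the groups (edgeR adjusted p = 0.827 and 0.61).

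Within each sex the mitochondrially encoded subunits again lay mostly above 0, in 12 of 13 for females (median 0.17) and 12 of 13 for males (median 0.12), with none called in either sex (61 and 260 of all genes were, the latter 1.54%). The nuclear medians were 0.018 and -0.024. No member passed the test of a difference in response between the sexes or, with treatment as a covariate, of males against females (0.0592% of all genes). These counts share the libraries of the pooled comparison and add no independent evidence to it.

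The pseudogenes were low and variable. Their means ran from 0.29 CPM for Atp5l-ps1 in PLX3397 to 8.62 CPM for Atp5pb-ps, also in PLX3397, their log2 fold changes from -0.26 to 0.29, and none passed the test. All 7 are near-identical to a parent gene, so reads may come from either.

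Genes around the chain were read from lists of 307 symbols, 303 of which matched. Assembly factors of complex I (16 tested) had 0 called and a median of 0.013, and those of complexes II to V (33 tested) 0 called and 0.0019. The genes with the smallest p in the second list were Cox20, needed for maturation of the Co2 protein, at 0.33 ± 0.08, and Lyrm7, which inserts the Rieske protein, at 0.58 ± 0.14, both with groups apart (edgeR adjusted p = 0.09 and 0.101). Factors of mitochondrial DNA replication and transcription (14 tested), of mitochondrial RNA processing (19 tested) and regulators of biogenesis (10 tested) had 0 called and medians of 0.015, -0.0024 and 0.0011. In those lists the transcription factor Tfam gave -0.02 ± 0.06, the RNA polymerase Polrmt 0.10 ± 0.07, the coactivator Ppargc1a 0.02 ± 0.05 and the exonuclease Pnpt1 0.19 ± 0.07. None passed.

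Neighbouring energy pathways had 0 genes called. In the tricarboxylic acid cycle 13 of 17 genes lay above 0 and 4 below, with a median of 0.048 and values from -0.37 to 0.23. In glycolysis 16 of 17 rows lay above 0 (Aldoa is listed on 2 rows), with a median of 0.066, where 49.4% of all genes tested lay above 0. Tpi1, at 384 to 396 CPM in vehicle and 404 to 436 CPM in PLX3397, gave 0.12 ± 0.03 and Gpi1 0.11 ± 0.03, both with groups apart (edgeR adjusted p = 0.106 and 0.137). Mitochondrial carriers and pores (16 tested) had a median of 0.022 and 0 called, and the other respiratory chain genes (7 tested), among them Cycs and Atpif1, one of 0.0023 and 0 called. The summed neuronal markers were higher in the same 4 libraries, though 4 of the 15 went the other way, as given above, and their part was not tested.

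The promoter windows of nuclear subunits were also searched as a group. Of the 80 genes 66 matched the RefSeq promoter table, from which chromosome 18 had been left out before matching. Ndufa2 and Atp5a1 lie on that chromosome and are therefore among the unmatched. Its genes are missing from the comparison set too. GCATGCGC was found in 8 of 66 windows (12.1%) against 4.75% of 11274 tested genes with a window, namely in Atp5g2, Atp5k, Atp5l, Cox6a1, Ndufa11, Ndufa6, Ndufa8 and Sdhb. The motif of ETS factors such as GABP (CCGGAAG) was in 12 of 66 (18.2%) against 14.2%, and that of YY1 (AAGATGGCG) in 1 of 66 (1.52%) against 1.30%, all on both strands. A match is a run of letters and not a bound site, and the form of the NRF1 motif was chosen after longer forms had been searched. Atp5g2 was the 1 called gene among the 8 with the NRF1 motif, and the other 7 had log2 fold changes from -0.23 to 0.03.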

How the data were processed

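Gene expression was measured by RNA sequencing of ribosomal-RNA-depleted total RNA. Counts per gene (whole numbers) and FPKM stand side by side in the table the authors deposited, where a count of 0 has an FPKM of 0.0001. Per the submitters' processing notes, bcl2fastq 2.0, HISAT2, StringTie, DESeq2, limma and build mm10 were used, in roles not named. The counting rules, the strand and the annotation are likewise not given in the sources used here. Counts on overlapping genes or near-identical copies can therefore be split in an unknown way.

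The 16894 genes whose mean FPKM reached 0.5 were tested with edgeR 4.0.16 (R 4.3.3; quasi-likelihood F-test, two-sided, TMM scaling, sex as covariate, Benjamini-Hochberg adjustment, threshold 0.05). Effects within a sex and their difference came from a 4-group model. CPM use TMM-scaled library sizes. Log2 fold changes are PLX3397 against vehicle, and standard errors were derived from the F statistic (absolute log2 fold change over its square root). Total counts ran from 54115300 to 67487391, and for most members the spread between animals, not counting error, sets the precision. The samples were taken as separate animals, as the series text speaks of 8 hypothalami; p-values measure only the spread between them. All pairs of libraries within a group differed by more than sampling noise (chi-square per degree of freedom from 41.6 to 69.9).

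The members and lists were chosen with earlier results of these data known. Named members are all mitochondrially encoded subunits, called nuclear subunits, up to 4 with the smallest p in each complex, tissue isoforms, the c subunit genes, genes nearest the FPKM threshold (inside, Atp5l-ps1 at 0.857 and Cox4i2 at 1.15; outside, Cox8b at 0.380 and Uqcrh-ps1 at 0.273) and those with a library far from its group; up to 2 genes by p stand for each surrounding list. Members and other genes named outside this rule (Ndufa11, Ndufs3, Cox6c, Atp5b, Atp5mpl, Atp5pb-ps, Tfam and Ppargc1a with values or as singled out) were chosen after their values were seen. In the list of annotated nuclear copies of mitochondrial genes (11 tested, 0 called, median log2 fold change 0.12), Gm10221 proved to be a copy of Atp5l. Alternatives covered filters, scalings, the sex term, the replicate label used as blocking factor, limma-trend 3.58.1 on log2(FPKM + 0.1, 0.5 or 1), DESeq2 1.42.0 and omission of each library. After the data had been seen, a fit without vehicle F1 and PLX3397 M2 and a fit on counts summed over copies were added. Checks on simulated counts were run for every test, and there DESeq2 made a clearly larger share of false calls than edgeR and limma-trend. After that was seen, the limit the check sets on false calls was kept for edgeR and limma-trend only. Positions are those of the deposited table (mm10), and promoter and overlap sequences come from RefSeq (GRCm38.p6) and GENCODE vM21 (GRCm38).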

Additional observations from a re-analysis of the deposited data

Results flagged for a closer look

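Each member's 4 libraries in each group were checked for a single library far from the other 3. Of 206 groups checked (100 members, the 2 shares and their ratio, in 2 groups each) 13 had such a library, and chance gives about 1 in 20.

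PLX3397 M1 was the low library for mt-Nd2 (2245 CPM, next 2783), mt-Nd6 (966 CPM, next 1260) and Atp5c1, the central shaft of ATP synthase (149 CPM, next 171). For mt-Nd2 that library lay below all vehicle libraries, and for mt-Nd6 among them.

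Ndufa5, an accessory subunit of complex I, had 1 high male library in each group, vehicle M1 at 46.7 CPM (next 36.6) and PLX3397 M1 at 50.2 CPM (next 36.9). Ndufa12 reached 57.5 CPM in vehicle M2 (next 36.0), and Ndufb11 70.4 CPM in the same library (next 66.9).

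Atp5j2 and Atp5pb, which both belong to the membrane part and stalk of ATP synthase, were low in the same 2 female libraries. Atp5j2 had 65.1 CPM in vehicle F1 (next 92.8) and 69.6 CPM in PLX3397 F2 (next 91.2). Atp5pb had 141 CPM in vehicle F1 (next 182) and 162 CPM in PLX3397 F2 (next 182). Atp5j was high in vehicle F2 at 71.2 CPM (next 58.4), and Cox5b in PLX3397 F2 at 129 CPM (next 124).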

How the results depend on the processing

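Over 22 alternatives the median log2 fold change ran from 0.043 to 0.17 for mitochondrially encoded subunits and, on either side of 0, from -0.0079 to 0.014 for nuclear ones; the lowest of the former came without vehicle F1 and PLX3397 M2. Counts of calls moved more. Members called numbered 1 in the main analysis, 2 with no filter, with median-ratio size factors, with TMM computed without mitochondrial genes and with limma-trend at pseudocounts 0.5 and 1, 3 with library totals, 4 without the sex term, 6 with DESeq2 and 0 whichever library, or the pair vehicle F1 and PLX3397 M2, was left out. The call was a different gene, mt-Co3, with filterByExpr and with summed copies. With no filter the 2 calls were mt-Co2 and mt-Co3, and there too Atp5g2 was not called. DESeq2 called 1099 genes against 362 and 144 against 13 for the difference between the sexes, and on simulated counts a larger share of its calls was false. Leaving out libraries gave 123 to 361 genes, with the count down by over 1.5 times without vehicle F2, M1 or M2, PLX3397 F2, M1 or M2, or the pair, and 0 to 19 for the sex difference (0 without PLX3397 F2, 2 without PLX3397 F1).

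With the replicate label as a block 79 genes and 0 members were called, and mt-Rnr2 and mt-Rnr1 did not pass (adjusted p = 0.052 and 0.074); without the pair, mt-Rnr1 did not either (0.069). Beyond sex, the sources used here do not say whether same-labelled libraries belong together. Their deviations from the group means correlated at 0.082, 0.11, 0.094 and 0.032 for F1, F2, M1 and M2. In 3 of 4 the best match was the own label. These values do not settle whether such libraries are paired.

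Signs near 0 turned. Ndufb11 was at 0.0032 with no filter. Sdhb was at -0.00089 with a minimum of 1 FPKM, -0.0056 with library totals and -0.0021, -0.0021 and -0.0020 with limma-trend at pseudocounts 0.5, 0.1 and 1; Atp5c1 at -0.0050, -0.010, -0.0086, -0.0086 and -0.0085, and at -0.0010 both without the sex term and with the replicate block; Cox8a at -0.0037 with library totals and -0.00034 in all 3 limma-trend fits. Without 1 library or the pair, ranges crossing 0 were -0.039 to 0.11 for mt-Nd1, -0.024 to 0.19 for mt-Nd2, -0.026 to 0.048 for mt-Nd3, -0.046 to 0.17 for mt-Nd4l, -0.041 to 0.14 for mt-Atp6, -0.20 to 0.095 for Ndufa12, -0.081 to 0.14 for Ndufa5, -0.031 to 0.019 for Ndufb11, -0.019 to 0.028 for Sdhb, -0.050 to 0.012 for Sdhc, -0.0092 to 0.099 for Uqcr11, -0.085 to 0.011 for Uqcrq, -0.077 to 0.18 for Cox4i1, -0.27 to 0.17 for Cox4i2, -0.070 to 0.13 for Cox6a2, -0.0012 to 0.036 for Cox6b1, -0.0057 to 0.032 for Cox8a, -0.052 to 0.037 for Atp5c1, -0.016 to 0.21 for Atp5j, -0.12 to 0.13 for Atp5j2 and -0.025 to 0.13 for Atp5pb. The cause of these shifts was not tested.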
